A study of Mus musculus with 18 samples.

Results

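Regions of chromatin that carried H3K79me2 in Th1 cells and in neither naive nor Th2 cells are described here. The peaks of 9 H3K79me2 lists on chromosomes 1 to 19 and X were merged into 60558 regions, and a list was counted as present where its peaks covered at least 50% of a region. The 1624 regions that were present in at least 2 of the 3 Th1 lists and in none of the 6 naive and Th2 lists are called Th1-only regions below. They span 5.64 Mb. The same rule gave 3233 regions for Th2 and 8340 for naive cells, and 11389 regions were present in at least 2 Th1 lists whatever the other lists held. Because peaks below 50% coverage are allowed in the other lists, "only" refers to this threshold.

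The study addressed DOT1L in mouse CD4 T helper cells and mapped H3K79me2 by chromatin immunoprecipitation and sequencing, with 3 libraries per cell type and 9 input libraries that are not analysed here. All samples carry the genotype label WT. Naive cells were CD44- CD62L+ cells taken from spleen without culture. For Th1 and Th2 cells, enriched CD4+ cells were kept for 4 days on plate-bound antibodies to CD3 and CD28, in medium with IL-12, IL-2 and an antibody to IL-4 (Th1) or with IL-4, IL-2 and an antibody to IFNg (Th2). Th1 cells were then sorted for a YFP reporter of Ifng, and Th2 cells for the AmCyan reporter of IL-4 or the dsRed reporter of IL-13. Culture, reporter strain and cell type therefore change together between naive and polarised cells and cannot be told apart, and the Ifng locus was itself the basis of the Th1 sort. Whether replicate libraries stand for different mice is not stated in the labels, and the spread given here may be technical.

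H3K79me2 is placed by DOT1L on nucleosomes of genes that are being transcribed, usually from just after the start site into the gene body, and broad domains of it are a feature of highly transcribed genes. Th1 cells form when IL-12 acts through STAT4 and when interferon gamma acts on the cells, which together raise the T-box factor T-bet (Tbx21). They then make interferon gamma, respond to IL-18, and take up part of the gene programme of NK cells and cytotoxic T cells with help from RUNX factors and Eomes. A peak list records where the mark was called and how much sequence it covered, not how much RNA was made.

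Sequences of start sites that lay inside Th1-only regions are shown first, because at these genes the Th1-only mark included the promoter. The RefSeq table on GRCm38.p6 (the assembly of mm10) holds 300-base windows around gene starts, and 141 such windows of 116 genes lay wholly inside Th1-only regions. The 250 bases before the start site are printed 5′ to 3′ on the strand of the gene for Plac8 and AA467197, whose windows hold a T-box match, for Ifng, and for Hlx, whose region held the strongest peaks. Capitals mark matches to any of 6 motifs searched on both strands. These were T-box (AGGTGTGA), RUNX (TGTGGTT), STAT (TTCNNNGAA), AP-1 (TGANTCA), the motif of GATA factors (AGATAA) and an interferon-stimulated element (a pair of GAAA runs with any 2 bases between them).
Plac8: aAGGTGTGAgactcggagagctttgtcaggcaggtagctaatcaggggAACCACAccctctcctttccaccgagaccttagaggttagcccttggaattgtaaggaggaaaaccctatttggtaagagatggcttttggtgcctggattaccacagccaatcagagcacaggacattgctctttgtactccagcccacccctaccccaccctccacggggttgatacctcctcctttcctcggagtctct
AA467197: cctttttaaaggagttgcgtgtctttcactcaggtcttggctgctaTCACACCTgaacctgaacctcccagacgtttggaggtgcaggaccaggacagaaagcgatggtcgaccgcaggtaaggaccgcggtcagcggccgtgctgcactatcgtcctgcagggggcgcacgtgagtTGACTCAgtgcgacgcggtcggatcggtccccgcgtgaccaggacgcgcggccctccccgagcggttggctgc
Ifng: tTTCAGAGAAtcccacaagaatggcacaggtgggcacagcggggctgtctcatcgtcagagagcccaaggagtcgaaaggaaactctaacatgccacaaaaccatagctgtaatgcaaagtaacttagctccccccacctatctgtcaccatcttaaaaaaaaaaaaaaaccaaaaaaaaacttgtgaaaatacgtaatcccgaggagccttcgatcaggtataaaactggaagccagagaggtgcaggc
Hlx: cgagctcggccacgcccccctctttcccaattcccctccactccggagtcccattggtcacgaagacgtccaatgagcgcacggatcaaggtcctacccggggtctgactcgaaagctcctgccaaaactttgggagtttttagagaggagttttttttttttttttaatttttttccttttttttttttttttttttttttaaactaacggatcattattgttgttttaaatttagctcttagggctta

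Counted from 1 at the first printed base, the Plac8 sequence (chr5:100572206-100572455, minus strand) had a T-box match at bases 2 to 9 and a RUNX match at bases 49 to 55. The AA467197 sequence (chr2:122637637-122637886, plus strand) had a T-box match at bases 47 to 54 and an AP-1 match at bases 178 to 184. The Ifng sequence (chr10:118440796-118441045, plus strand) had a STAT match at bases 2 to 10, and the Hlx sequence (chr1:184732494-184732743, minus strand) had none of the 6. Over the 141 windows, T-box matches were in 3 (2.13%, against 1.28% of all 32619 windows), and the third belonged to 4930572G02Rik. RUNX matches were in 9.22% of the windows against 5.29% of all, STAT in 12.1% against 8.34%, AP-1 in 12.1% against 7.85%, GATA in 13.5% against 11.2%, and the interferon-stimulated element in 5.67% against 3.46%. In windows inside any region present in at least 2 Th1 lists the shares were lower, at 0.967% for T-box and 4.18% for RUNX. The median GC content was 53.3% in the windows of Th1-only regions, 60.3% in those of all Th1-marked regions and 53% in all windows, so the sets also differ in base composition. A match is a run of letters and says nothing of binding, and no test was made of these shares.

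Hairpins of 7 miRNAs, of 1005 in the RefSeq table, also lay wholly inside Th1-only regions. The mature sequences of the 3 hairpins whose regions had no peak in any naive or Th2 list are given with the seed (bases 2 to 8) in capitals.
miR-147-5p: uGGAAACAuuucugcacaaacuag
miR-7057-5p: cAGGAGAGgacucaaguu
miR-7057-3p: uAAUUUGAugucuuucuccacc
miR-1962: aGAGGCUGgcacugggacacau

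Mir147 lies in AA467197, and peaks covered 92.3, 84.2 and 82.0% of this 6015-bp region (chr2:122636903-122642917) in Th1 lists 1, 2 and 3 and 0% in the naive and Th2 lists. Mir7057 lies in Lrrk1, in a region covered to 88.3, 88.0 and 82.7% in the Th1 lists. Mir1962 lies in Ptpre, the gene of a receptor-type tyrosine phosphatase, in a region covered to 100, 93.7 and 48.9%, with list 3 the lowest. The other hairpins were Mir92b, Mir138-2, Mir7062 and Mir1928, and the 11 mature sequences listed for the 7 hairpins had 11 different seeds. The mark over a hairpin does not show that the miRNA was made.

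Th1-only regions were a small share of what the lists covered. They held 5009, 4340 and 3533 kb of peak sequence in Th1 lists 1, 2 and 3, which was 2.09, 1.96 and 1.63% of each list. In the naive lists they held 273, 238 and 294 kb, and in the Th2 lists 553, 548 and 912 kb. The Th1 values were set apart by the rule. It set no order among the other lists, but it dropped every region that any of them covered to the cover threshold. The naive and Th2 values are therefore what this cap left. Every Th2 list held more than every naive list, and Th2 list 3 stood above the other Th2 lists. The mean of the naive lists was 268 ± 28.7 kb and that of the Th2 lists 671 ± 209 kb (SD, n = 3 each), a difference of 403 kb with a 2-sided exact permutation p of 0.1, the smallest that 3 lists against 3 can give, and an adjusted p of 0.1 over 3 tests. By region, 995 of the 1624 were called higher in Th1 than in naive cells by limma (4.88% of all regions were) and 0 lower (17.2% of all), and 732 were called higher than in Th2 cells (1.94% of all) and 0 lower (3.93% of all; in neither contrast was a member lower at an unadjusted limma p under 0.05), but nothing is read from these counts, since the rule used the same contrasts. The naive lists covered more sequence as a whole, 280.0 ± 4.68 Mb against 240.3 ± 8.93 Mb in Th2 and 226 ± 12.2 Mb in Th1 cells, so the order inside Th1-only regions is opposite to that of the list totals.

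**Figure D1:**
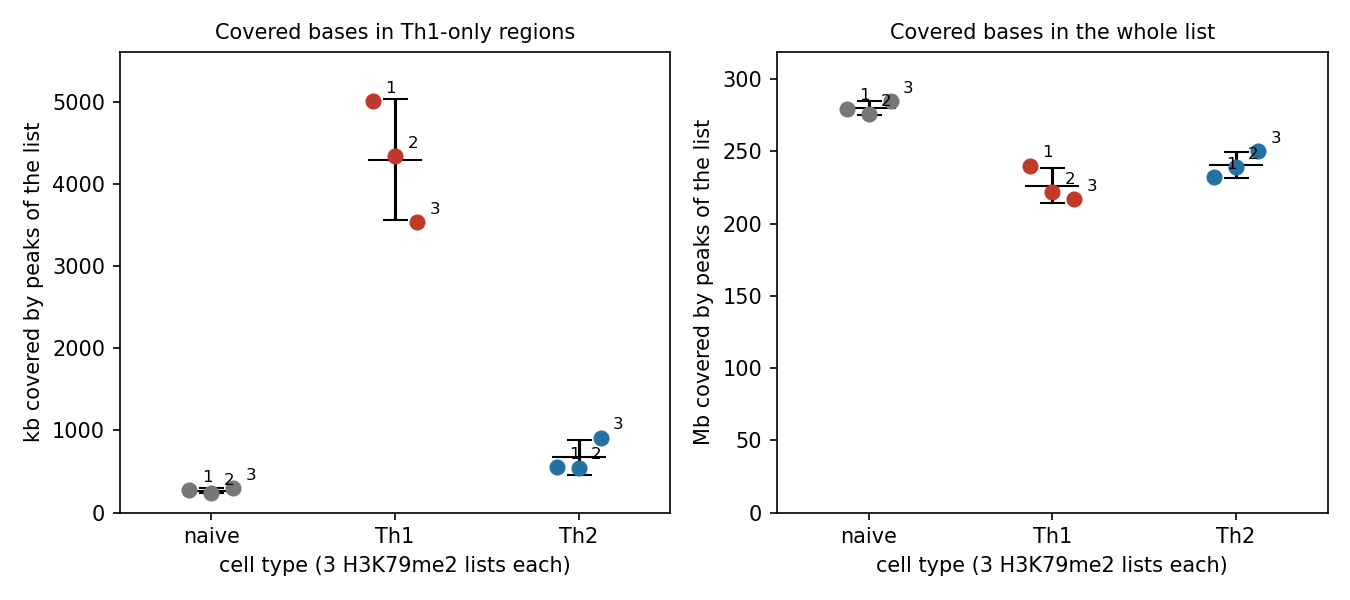
Peak sequence inside the Th1-only regions (left, kb) and in the whole list (right, Mb) for the 9 lists; points are lists with their replicate number, and bars are the mean and SD of 3. On the left the Th2 points (548 to 912 kb) lie above the naive points (238 to 294 kb), while on the right the naive points are the highest.

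Most Th1-only regions had no peak at all in the other cells. Of the 1624, 850 (52.3%) were untouched by all 6 naive and Th2 lists, 476 (29.3%) were touched by a Th2 list and no naive list, 57 (3.51%) by a naive and no Th2 list, and 241 (14.8%) by both. The untouched regions were short, with a median width of 908.5 bp, against 4337 bp for those touched by both. A longer region can be touched more easily, so these counts move with width. Th2 list 3 alone touched 131 of them.

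Marker genes of cell types were compared by the percent of the annotated gene covered by peaks. All 10 T lineage genes were covered to 83.2% or more on average in the Th1 lists, Cd4 being the lowest. Of the CD8 markers, Cd8a was at 0% and Cd8b1 at 9.01% in Th1 cells, against 100% for both in the naive lists. The markers of CD8 T cells thus did not move with the Th1-only regions. Because both CD8 genes were marked in the naive lists, these values do not show that the naive cells were CD4 cells alone. Whether CD8 T cells were among them was not tested, and naive values at cytotoxic genes carry the same limit. In the Th1 lists Ms4a1, Pax5, Lyz2, Csf1r and Cd14 were at 0%, whereas Cd79a was at 100% in all 9 lists and Tyrobp was at 44.97% in Th1, 100% in naive and 93.0% in Th2 cells. None of the 38 marker genes held a Th1-only region.

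Th1-only regions were shorter than regions marked in Th1 cells in general, and their strongest peaks ranked lower. Their median width was 1671.5 bp, against 11936 bp over all regions present in at least 2 Th1 lists, and 118 of them reached 10 kb and held 39.8% of their bases. The fold enrichment that the authors' caller gave the strongest peak of a region ranked at a median percentile of 44.2 among the peaks of its own list, against 84.2 for all Th1-marked regions. This measure moved with width: among Th1-only regions the median percentile was 29.6 under 1 kb and 80.1 at 10 kb or more. The sets were not matched on width, so the lower rank cannot be told apart from the shorter width. Peaks with a −log10 q of at least 5 in 2 Th1 lists were present in 137 (8.44%), against 62.7%. Regions marked only in Th2 (median 1382 bp, percentile 41.4) and only in naive cells (2603 bp, 45.95) were also shorter than Th1-marked regions. Over all 60558 regions the median width was 990 bp, so Th1-only regions were short only against the Th1-marked set. Whether the 50% rule itself favours short regions was not tested.

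**Figure D2:**
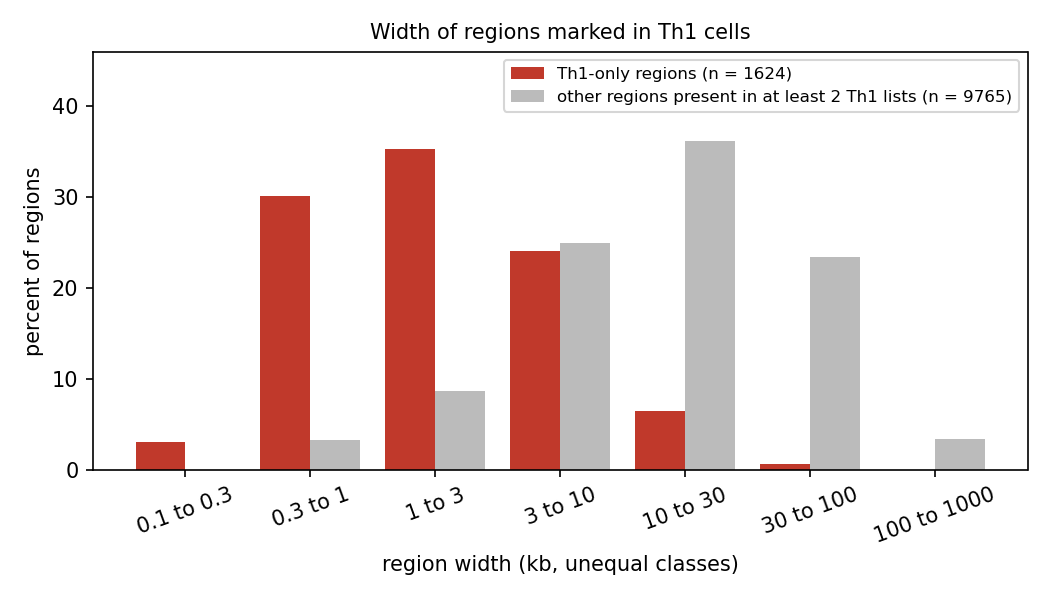
Width classes (kb, unequal) of the 1624 Th1-only regions and of the 9765 other regions present in at least 2 Th1 lists, as percent of each set. Th1-only regions were most often 1 to 3 kb wide (35.3%), the others 10 to 30 kb (36.1%).

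How far single regions recurred depended on their width and on the list. All 3 Th1 lists were present in 483 Th1-only regions (29.7%), against 73.4% of all Th1-marked regions, while 722 were present in lists 1 and 2 alone, 289 in lists 1 and 3 and 130 in lists 2 and 3. When a region was chosen on 2 Th1 lists, the list left out was present in 78.8% (list 1), 62.6% (list 2) and 40.1% (list 3) of cases. For regions of at least 5 kb these shares were 99.0, 92.7 and 73.3%, and for regions present in all 6 naive and Th2 lists they were 99.7, 97.8 and 96.5%. The borders of the regions were drawn with the left-out list included, which can raise these shares. By this rule Th1 list 3 was the least complete over these regions, but with the lists matched on covered length the shares were 42.9% (list 1), 78.5% (list 2) and 64.8% (list 3), so list 1 was then the lowest. A short region present in lists 1 and 2 alone has less behind it than one present in 3. At the thresholds themselves, the region in Plxnc1 had its second highest Th1 list at 50.2% and entered, and a region in Tnpo3 stood at 49.9% and did not. A region in Trps1 entered with its highest other list at 49.8%, and one in Fsd1l stayed out at 50.1%.

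The widest Th1-only region lay in Runx2, which encodes a RUNX transcription factor best known from bone and also present in T cells. It spans 138749 bp (chr17:44607233-44745981), all of it inside the gene, from 68.6 to 207.4 kb after the 5′-most start site. Peaks covered 99.3, 97.6 and 92.8% of it in the Th1 lists, 15.4, 12.9 and 24.1% in the Th2 lists and 1.75, 1.77 and 1.32% in the naive lists. The 3 cell types did not overlap, and the Th2 peaks were scattered short runs. The beginning of the annotated gene, which overlaps Supt3, carried peaks in all 9 lists, so the Th1-only mark began inside the gene. Over the whole annotated gene, coverage was 52.1, 49.0 and 47.1% in Th1, 16.5, 13.1 and 17.8% in Th2 and 8.18, 7.93 and 9.61% in naive lists.

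The Ifng locus, which encodes the cytokine the Th1 cells were sorted for, had 19 Th1-only regions within 191.8 kb (chr10:118371225-118563061), with gaps of at most 50 kb between them. Together they held 159.7 kb, and 7 were present in all 3 Th1 lists. The region over the gene is 10892 bp wide, and peaks covered 100, 94.7 and 89.3% of it in the Th1 lists, 0, 0 and 3.7% in the Th2 lists and 0% in the naive lists. A 25290-bp region that touches no annotated gene, 22.1 to 47.3 kb before the start site, was covered to 98.5, 91.0 and 67.5% in the Th1 lists and to 0% elsewhere. In both regions Th1 list 3 was the lowest Th1 list. No other protein-coding gene lies in the plotted window. Of the 19 regions, 1 lay over Ifng, 6 over the long non-coding RNA gene Ifngas1, and 12 touched no annotated gene.

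**Figure D3:**
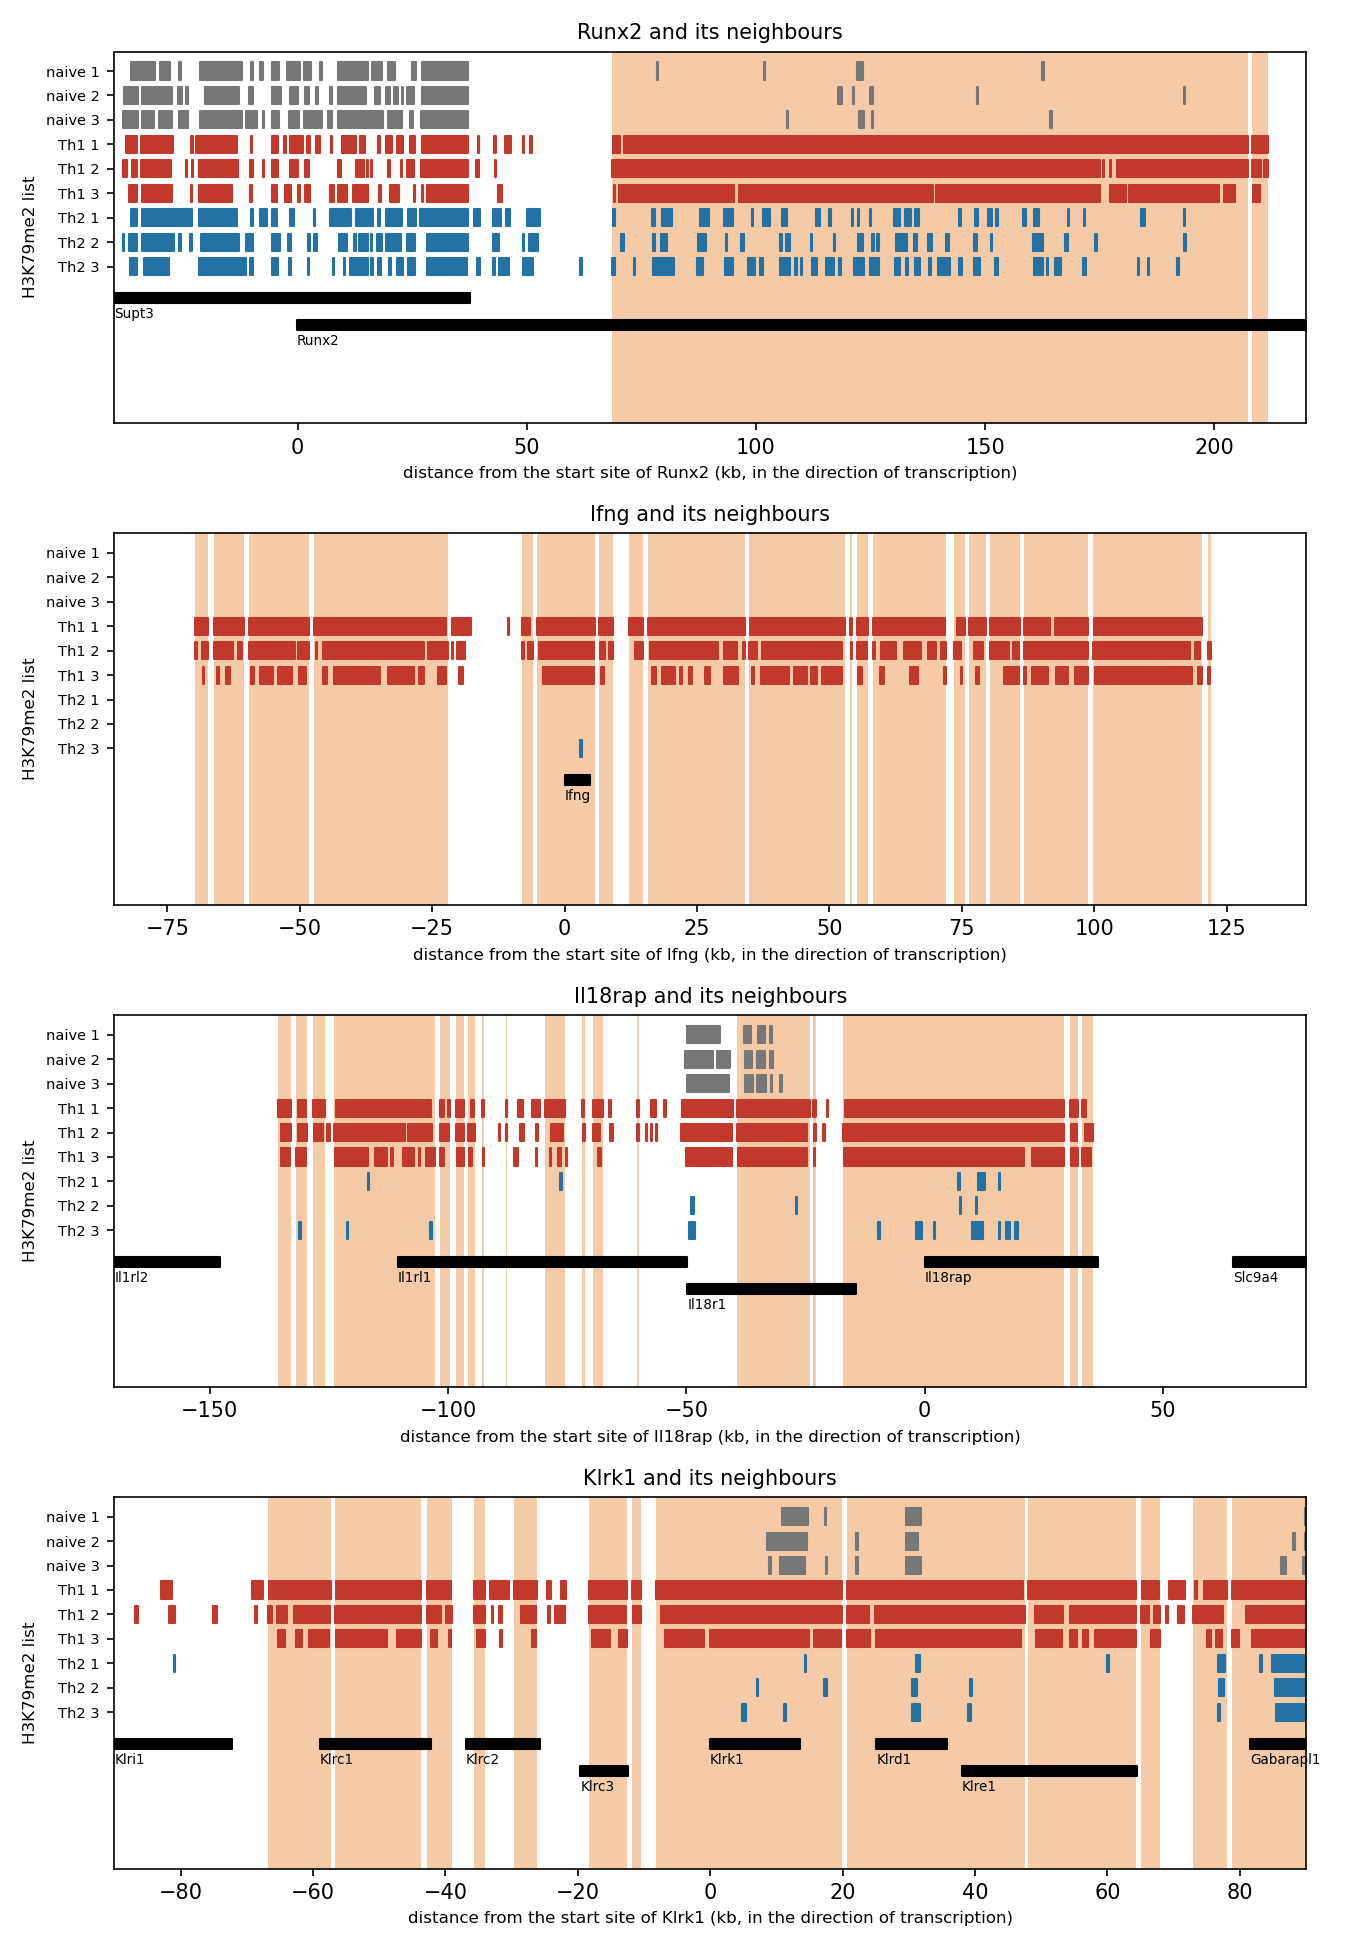
Merged peaks of the 9 lists (rows; gray naive, red Th1, blue Th2) around Runx2, Ifng, Il18rap and Klrk1 against the distance from the start site of the named gene (kb), with Th1-only regions shaded and protein-coding genes as black bars. The Runx2 window holds 2 shaded regions, of which the 138749-bp one is a union of long Th1 runs with short gaps in each list, and the Ifng, Il18rap and Klrk1 windows hold 19, 18 and 13 shaded regions.

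The genes of the IL-18 receptor held another dense group. IL-18 acts with IL-12 to raise interferon gamma in Th1 cells, through a receptor made of the Il18r1 and Il18rap chains. Within 170.9 kb (chr1:40379783-40550717) there were 18 Th1-only regions, 15 of them over Il1rl1, Il18r1 or Il18rap and 3 before Il1rl1, and 7 of the 18 were present in all 3 Th1 lists. The widest, 46481 bp over Il18rap and the end of Il18r1, was covered to 98.7, 100 and 95.6% in the Th1 lists, 4.7, 1.1 and 13.5% in the Th2 lists and 0% in the naive lists. A 15306-bp region inside Il18r1 differed from it in that the naive lists held part of it, 21.0, 25.05 and 27.3%, while the Th2 lists held 0, 1.4 and 0%. Over the whole Il18r1 gene the naive lists stood at 28.6, 33.7 and 36.9% and the Th2 lists at 0, 2.68 and 3.69%, and this fall in Th2 cells passed the test (-30.9 points, limma).

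Il1rl1, which encodes the IL-33 receptor ST2 and is usually listed among Th2 genes, held 10 Th1-only regions. Its coverage over the gene was 40.1, 34.1 and 17.9% in the Th1 lists, at most 0.860% in the Th2 lists and at most 0.520% in the naive lists. The largest of its regions, 21052 bp, was covered to 95.5, 94.2 and 68.5% in the Th1 lists. The mark in the Th1 lists thus ran over Il1rl1 in pieces, next to the IL-18 receptor genes. Of the 24 Th2 genes listed, Il1rl1 was the one that held a Th1-only region.

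Among transcription factors, Hlx, a homeobox factor that acts with T-bet on Ifng, held the region with the strongest peaks. Its 14515-bp region, which includes the start site, was covered to 92.9, 99.7 and 87.9% in the Th1 lists, 0, 0 and 15.4% in the Th2 lists and 0% in the naive lists. The fold enrichment of its strongest peak was 9.09, 6.57 and 6.36 in Th1 lists 1, 2 and 3, which ranked at a mean percentile of 97.2. Eomes, the second T-box factor of T cells, had a 3299-bp region with 89.4, 93.5 and 94.3% in the Th1 lists, 0, 7.24 and 34.95% in the Th2 lists and 0% in the naive lists. Th2 list 3 was the highest of the other lists in Hlx and in Eomes. Tbx21 itself held none, because it was fully covered in the Th1 lists and to 99.7% or more in the Th2 lists as well, against 0% in the naive lists.

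Jun and Hopx had regions that other cells held in part. Jun, a subunit of AP-1, had a 12583-bp region with 96.4, 88.5 and 99.1% in the Th1 lists, 25.9, 37.0 and 33.5% in the Th2 lists and 11.9, 16.0 and 13.6% in the naive lists. The gene itself is much shorter than the region and was marked in all 3 cell types: 100% in the Th1 lists, 90.6, 97.6 and 94.4% in the Th2 lists and 46.9, 56.6 and 53.5% in the naive lists. At Jun the Th1-only region therefore describes how far the domain reached, not whether the gene was marked. Hopx, a homeodomain protein found in effector T cells, had a 14587-bp region with 100, 97.8 and 90.4% in the Th1 lists, 23.4, 22.4 and 35.9% in the Th2 lists and 6.2, 13.7 and 14.6% in the naive lists.

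Of 22 cytotoxic and NK receptor genes, 8 held a Th1-only region (36.4%, against 2.79% of the 21631 protein-coding genes). The list was drawn up with earlier results of these data known, so this share is description. These were Klrc1, Klrc2, Klrd1, Klrk1, Klre1, Gzmc, Gzmf and Gzmm. The lectin-like receptors, which NK cells and effector T cells use to sense stress ligands and class I molecules, lie side by side, with 13 Th1-only regions from Gabarapl1 to Klrc1 within 158.2 kb (chr6:129532422-129690596). At Klrk1, which encodes NKG2D, the 28077-bp region was covered to 99.9, 97.3 and 88.2% in the Th1 lists, 0.9, 2.7 and 3.0% in the Th2 lists and 14.8, 21.5 and 15.3% in the naive lists. The naive lists were above the Th2 lists there without overlap, though the difference did not pass the region test (limma adjusted p = 0.251). At Klrc1, a chain of the CD94 and NKG2A receptor, the 13008-bp region was covered to 99.1, 100 and 87.0% in the Th1 lists and 0% in the other 6. Klrc1, Klrc2 and Klrc3 are close copies of each other, as are the granzymes Gzmc and Gzmf, so reads could be split between them and these regions are uncertain. Genes of this list also mark NK cells. Ncr1, a receptor that defines NK cells, was at 0% in all 9 lists, as were Klrg1 and Gzmk, and Klrb1c was at 0, 0 and 2.46% in the Th1 lists and 0% elsewhere.

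Gzma, Gzmb and Prf1 held no Th1-only region. Gzma, granzyme A, was covered to 30.7, 41.0 and 52.3% in the naive lists, 0, 0 and 19.7% in the Th2 lists and 0% in the Th1 lists, and was called lower in Th1 than in naive cells (-41.4 points, limma adjusted p = 0.00105). Gzmb, granzyme B, was fully covered in the Th1 lists but also to 100, 92.0 and 93.2% in the Th2 lists, so it could not be Th1-only. Prf1, perforin, was covered to 99.8% or more in the Th1 lists and to 75.9, 76.3 and 77.3% in the naive lists, against 0, 6.13 and 16.9% in the Th2 lists. The granzyme regions that were Th1-only were small, 373 bp at Gzmm, 2020 bp at Gzmf and 3589 bp at Gzmc. Over the whole Gzmc gene, coverage was 10.6, 11.1 and 10.3% in the Th1 lists and 9.51, 8.37 and 2.70% in the naive lists, a difference that did not pass the test (limma adjusted p = 0.0867).

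Chemokine genes of the Ccl3 and Ccl4 locus, whose products draw in leukocytes, held 2 adjoining regions. The 10511-bp region over Ccl3 and Ccl4 was covered to 97.3, 100 and 88.9% in the Th1 lists, 0, 0 and 3.5% in the Th2 lists and 0% in the naive lists. The next, 8109 bp in Ccl4, was covered to 96.1, 78.0 and 89.8% in the Th1 lists and also in part in the Th2 lists, to 23.0, 27.5 and 36.1%. The annotated Ccl3 and Ccl4 genes overlap at their ends, and the first region lies over both. Ccl5 held 1 region with 91.6, 74.9 and 75.8% in the Th1 lists and 0% in the others, and Ccr1 held 1 with 100, 56.5 and 35.5% in the Th1 lists, 0, 33.7 and 42.0% in the Th2 lists and 0% in the naive lists. At Ccr1, Th1 list 3 lay below Th2 list 3. Of 30 chemokine and chemokine receptor genes listed, these 4 held a Th1-only region. Cxcr1 and Cxcr2, which the list did not include, also lay under Th1-only regions.

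Interferon response genes were represented by the guanylate-binding proteins Gbp3, Gbp5 and Gbp7, large GTPases that act against intracellular pathogens, 3 of the 23 annotated genes of that list. The 48760-bp region over Gbp7 and Gbp3 was covered to 99.2, 98.5 and 98.3% in the Th1 lists, 31.9, 34.1 and 44.7% in the Th2 lists and 34.4, 35.3 and 35.3% in the naive lists. At Gbp5 the 20473-bp region was covered to 97.9, 99.5 and 99.8% in the Th1 lists, 49.3, 43.2 and 48.2% in the Th2 lists and 41.6, 37.2 and 44.4% in the naive lists. The Gbp5 region lay close to the 50% threshold in some of the other lists, and the Gbp7 and Gbp3 region stood at 31.9 to 44.7% in them. Here the Th1-only label therefore marks a wider domain over genes that were also marked elsewhere. The Gbp genes are close copies of each other, and reads could be split between them.

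Counted over genes, 603 of 21631 protein-coding genes (2.79%) held a Th1-only region, 110 of them overlapping another protein-coding gene. A gene was called where its percent covered differed by 25 points or more and limma's adjusted p was below 0.05. Of the 603, 156 were called higher in Th1 than in naive cells (4.38% of all 11600 genes tested were) and 9 lower (16.3% of all). Against Th2 cells, 104 were called higher (1.56% of all) and 0 lower (2.08% of all; 22 were lower at an unadjusted limma p under 0.05), and 99 were called higher against both. These contrasts use the data of the rule and are given as description. By list, 9 of 30 Th1 genes held a region (Ifng, Ccl3, Ccl4, Ccl5, Il18r1, Il18rap, Hlx, Eomes and Ly6c2), and so did 2 of 22 activation genes (Entpd1 and Cd38), 2 of 16 genes of other T helper lineages (Il23r and Rora), 2 of 20 glycolysis genes (Hk1 and Pfkl), and 2 of 19 genes of IL-12, IL-18 and IL-27 signalling, which were the IL-18 receptor genes. The gene lists, that of Th1 genes among them, were drawn up with earlier results of these data known.

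Ly6c2, a surface marker of effector and memory T cells, had 100, 88.4 and 91.5% of its 4876-bp region covered in the Th1 lists, 4.47, 18.97 and 37.6% in the Th2 lists and 31.8, 28.0 and 22.4% in the naive lists, the latter groups overlapping. Il23r, the receptor chain for IL-23 usually linked to Th17 cells, held 6 regions, and over the gene it was covered to 72.1, 66.9 and 49.5% in the Th1 lists, 12.8, 9.34 and 17.1% in the Th2 lists and 0% in the naive lists. Entpd1, the ectonucleotidase CD39, had a 20114-bp region with 99.1, 75.8 and 39.9% in the Th1 lists, so list 3 fell under the 50% line there. Cd38, an ectoenzyme that consumes NAD, had 100, 87.6 and 86.0% of a 13961-bp region covered in the Th1 lists and 20.03, 2.18 and 28.5% in the Th2 lists.

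**Figure D4:**
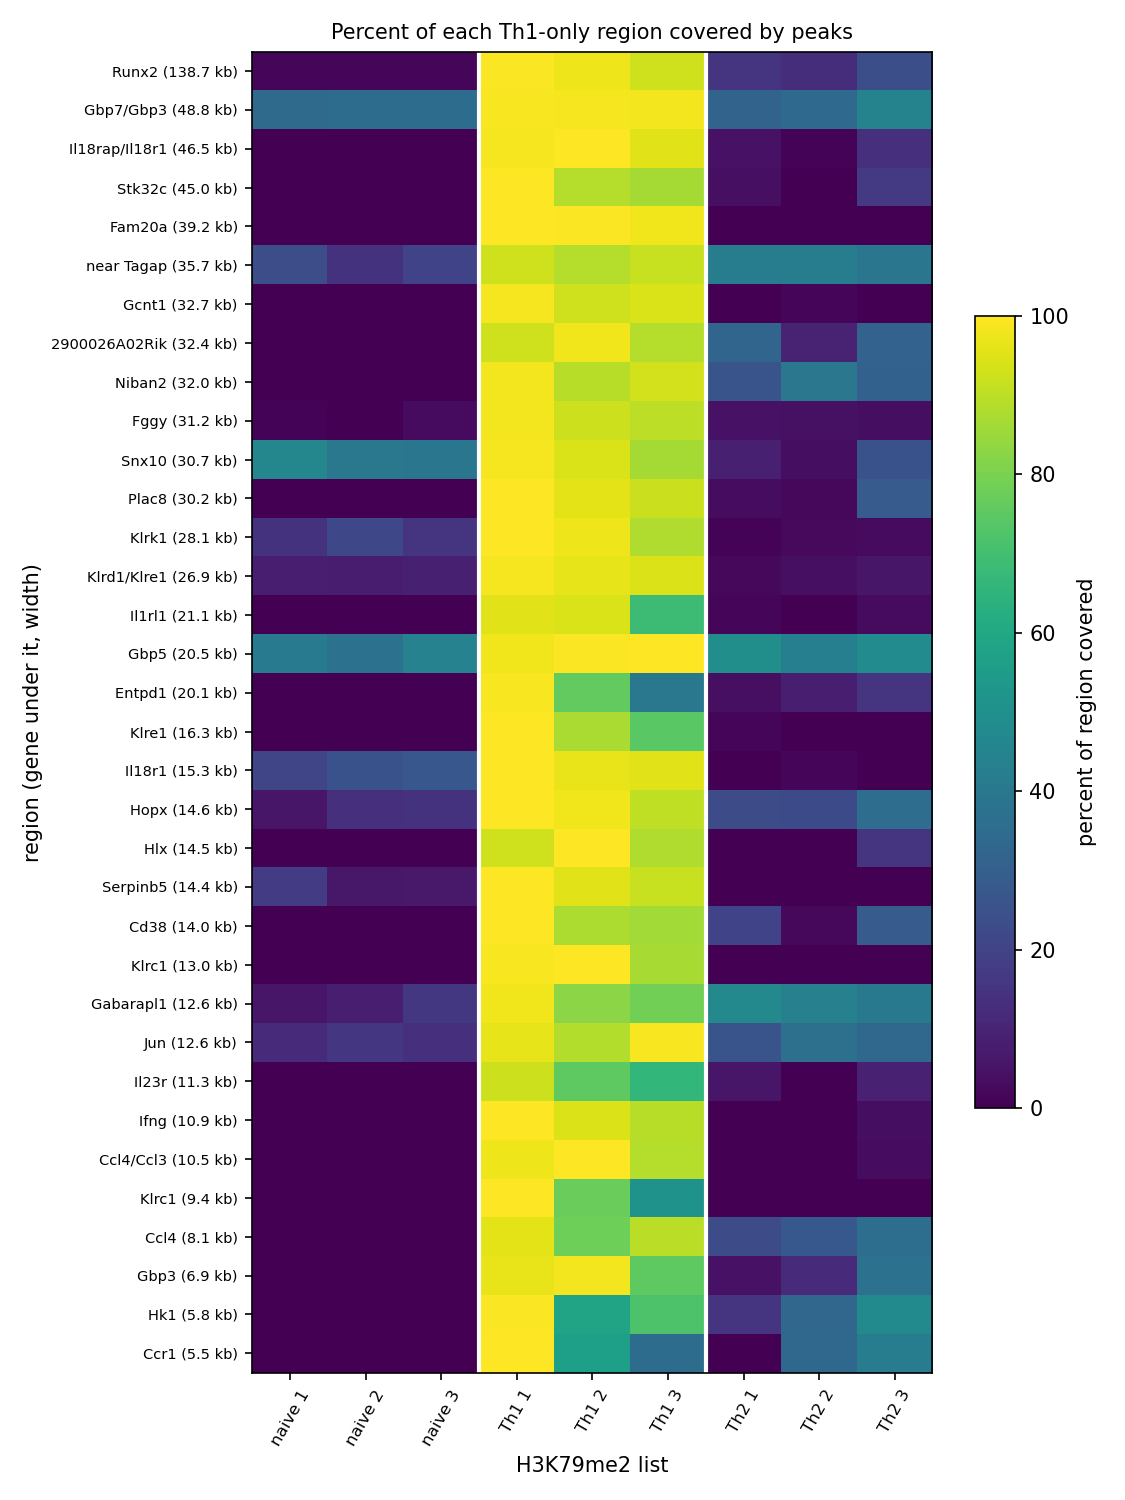
Percent of each of 34 named Th1-only regions covered by peaks in the 9 lists (columns), with regions ordered by width (rows, gene and width in kb). Most squares in the Th1 columns are bright, except Th1 list 3 at Entpd1 (39.9%) and Ccr1 (35.5%), and several regions, among them Gbp5, Gbp7, Snx10 and Gabarapl1, also show intermediate values in naive or Th2 columns.

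Several of the widest regions lay in genes that no list named. Fam20a, which encodes a pseudokinase of the secretory pathway, had a 39229-bp region with 100, 99.3 and 97.9% in the Th1 lists and 0% in the other 6. Gcnt1, a glycosyltransferase that builds core-2 O-glycans used by selectin ligands, had a 32694-bp region with 98.8, 92.6 and 94.2% in the Th1 lists, 0, 1.9 and 0% in the Th2 lists and 0% in the naive lists. Plac8, a small cysteine-rich protein, had a 30223-bp region with 100, 95.8 and 91.9% in the Th1 lists, 3.3, 2.0 and 28.8% in the Th2 lists and 0% in the naive lists. The Fam20a and Plac8 regions held the 5′-most start site of their gene, and the Gcnt1 region began 13.5 kb after it and held start sites further inside the gene. The Th1 lists were alike at each of them, and Th2 list 3 was again the highest Th2 list at Plac8.

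Other long genes carried the mark in pieces. Fggy, a sugar kinase family member, held 20 regions, the most of any gene, with 58.2 kb in all, and its gene coverage was 15.5, 14.2 and 14.0% in the Th1 lists and at most 0.460% in each of the others. Stk32c, a serine/threonine kinase gene, held 3 regions with 60.6 kb, of which the widest (45034 bp) was covered to 100, 88.7 and 86.6% in the Th1 lists, 4.3, 0 and 17.0% in the Th2 lists and 0% in the naive lists. Ptpre held 7 regions with 70.4 kb, but Th1 list 3 was low over the gene, at 34.3% against 67.2 and 56.6% in lists 1 and 2. Serpinb5, a serpin, had 1 strong 14417-bp region with 99.9, 95.6 and 91.5% in the Th1 lists, 17.4, 6.4 and 7.0% in the naive lists and 0% in the Th2 lists.

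Regions outside genes were also long in places. Of the 1624, 427 (26.3%) touched no annotated gene and 1030 (63.4%) touched a protein-coding gene, against 67.1% of all 60558 regions and 84.99% of Th1-marked regions. Besides the region before Ifng, the longest were a 32923-bp region 13.6 kb from Hibadh, with 93.0, 88.5 and 66.8% in the Th1 lists and 0% in the naive lists, and a 25216-bp region 9.44 kb from Gng2, with 94.4, 90.4 and 93.1% in the Th1 lists and 11.01, 6.09 and 9.54% in the naive lists. In the Th2 lists the first was covered to 13.5, 5.3 and 27.5% and the second to 18.2, 15.3 and 42.4%. A nearest gene is given only as a landmark.

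Inside genes, Th1-only regions lay further from the start than Th1-marked regions in general. Where the strand was known, the midpoint of 801 Th1-only regions lay at a median of 54.5% of the gene's length. It was 36.0% for 7196 regions present in at least 2 Th1 lists. The same median was 53.9% for regions marked only in Th2, 59.0% for those only in naive cells and 54.3% for all regions together. The place of the midpoint is thus not particular to Th1. Of all 1624 Th1-only regions, 114 (7.02%) held a start site, against 45.5% of the 11389 regions present in at least 2 Th1 lists. This share was 2.72% for regions marked only in Th2, 7.48% for those only in naive cells and 11.1% for all regions. For 419 genes whose start lay outside their Th1-only region, a peak covered the start in at least 2 lists of naive cells in 33.2%, of Th1 cells in 37.5% and of Th2 cells in 33.2%, and in none of the 3 cell types in 53.5%. Over all 17274 protein-coding genes with a known start site these shares were 33.0, 24.9, 25.9 and 63.2%. The naive share was therefore near that of all genes.

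**Figure D5:**
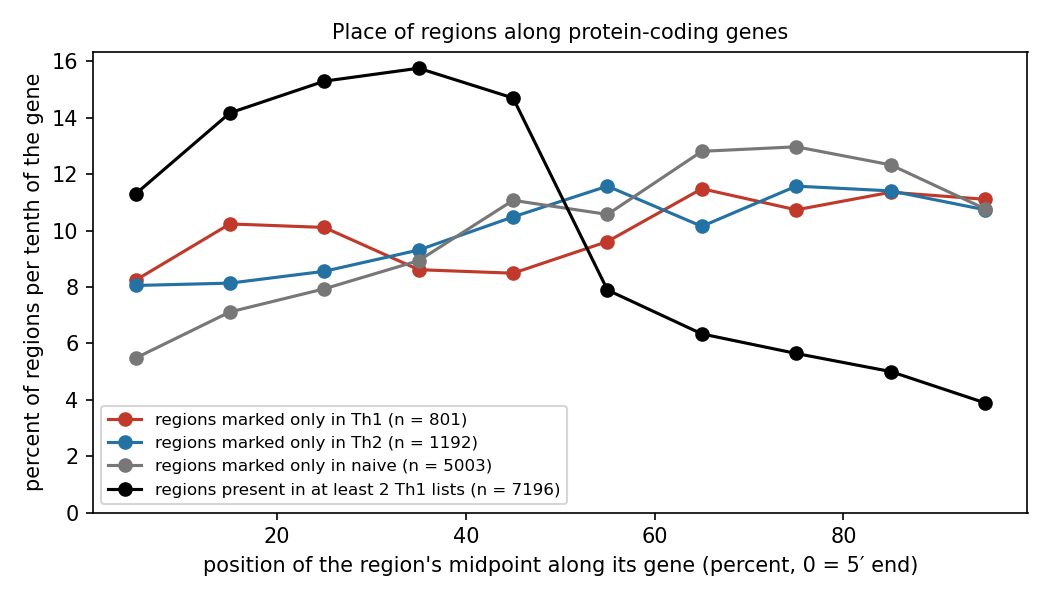
Percent of regions in each 10% of their protein-coding gene, from the 5′ end (0) to the 3′ end (100), for 801 Th1-only, 1192 Th2-only and 5003 naive-only regions and for 7196 regions present in at least 2 Th1 lists. The black line peaks in the first part of the gene (15.8% from 30 to 40% of its length), while the 3 single-cell-type lines lie between 5.48 and 12.97% throughout.

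The rule set no direction between Th2 and naive cells inside these regions, although it capped the values of both. Of the 1624, limma called 32 higher in Th2 than in naive cells (1.97%, against 6.92% of all 60558 regions) and 3 lower (0.185%, against 15.8%). The rule keeps both groups under 50% in every list, which leaves little room for a difference of 25 points, so a low share of calls is not a sign that the groups were alike. For the same reason the largest rises are regions that were low in the naive lists and just under the cut in the Th2 lists. Among regions of at least 2 kb the largest rises were beside Tmpo (44.4 points, SE 11.9, adjusted p = 0.0142), in Ust (44.0, SE 8.68, adjusted p = 0.00208), Gse1 (41.8, SE 8.03, adjusted p = 0.00176), Atg16l2 (40.7, SE 7.38, adjusted p = 0.00117) and Setbp1 (40.5, SE 9.29, adjusted p = 0.00555), the last 4 inside their genes and all from limma. At Gse1, which encodes a coiled-coil protein, the 12874-bp region was covered to 47.0, 37.0 and 41.3% in the Th2 lists, 0% in the naive lists and 90.3, 92.7 and 78.0% in the Th1 lists. The called regions also included one at Pfkl, a glycolytic enzyme, one at Ccl4, one over Cxcr1 and one over Rufy4 and Cxcr2.

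The 3 regions called lower in Th2 cells were in Snx10 and beside Krtcap2 and Hectd2. In Snx10, a sorting nexin of endosomes, the 30719-bp region was covered to 46.2, 39.99 and 39.4% in the naive lists, 8.6, 3.9 and 25.3% in the Th2 lists and 98.8, 94.4 and 86.4% in the Th1 lists (Th2 minus naive -29.3 points, SE 7.79, limma adjusted p = 0.0134). The groups did not overlap. At Ttll5 and Slc35f5 the Th2 lists were also lower, by -34.7 and -28.4 points, but the adjusted p of 0.0581 and 0.0530 missed the threshold. All 3 calls ended when each list was centred to one mean. The number called higher ran from 0 to 146 over the settings tried, but these ends were set by the cover threshold. At 25% no difference could reach 25 points, and at 75% there was more room for one. Under the other settings the number ran from 9 to 76, so the counts are weak. The per-list values are given as description, since the rule capped them.

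At the level of genes, 32 of the 603 were called higher in Th2 than in naive cells (5.31%, against 4.26% of all genes tested) and 15 lower (2.49%, against 15.4%). Jun rose from 46.9, 56.6 and 53.5% in the naive lists to 90.6, 97.6 and 94.4% in the Th2 lists, a difference of 41.8 points (SE 2.68) past the limma threshold. Niban2, a protein of the stress response, stood at 0% in the naive lists and at 19.6, 27.5 and 20.2% in the Th2 lists, which was 22.4 points and under the 25-point limit. Klrk1 was lower in the Th2 lists by -24.3 points, also just under the limit. Over the 603 genes the median difference was 0 points, against -5.50 points over all genes. A gene was among the 603 only if it held a region below the cover threshold in every naive and Th2 list. This selects against genes covered throughout in naive or in Th2 cells. The shares of calls and the median are therefore given as description, and the distance from all genes cannot be told apart from this selection.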

How the data were processed

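Per the labels, H3K79me2 was mapped in naive, Th1 and Th2 cells (3 libraries each). The authors deposited 1 broad peak list per library, and mm10, Bowtie2, SAMtools, Picard and MACS2 are named in the submitters' processing notes. The sources used here give no versions or settings, and do not say how inputs entered peak calling. Each deposited peak has a display score (10 times the −log10 q), a fold enrichment (a ratio) and −log10 p and −log10 q values, all the authors' own and used only to rank or filter peaks within a list. Read depth is unknown, so no counting interval was set.

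Peaks were merged as described, and percent covered was computed per region and per annotated gene (RefSeq, GRCm38.p6, 1-based). limma 3.58.1 (lmFit, eBayes with trend, 6 residual degrees of freedom, Benjamini-Hochberg adjustment over all regions or genes) was run under R 4.3.3; a call needed an adjusted p under 0.05 and 25 points. For covered lengths, exact permutation tests (2-sided) were used (Python 3.11.15, scipy 1.17.1). The fits were tested on simulated data. The gene fit recovered most changed genes. The region fit recovered none when few regions were changed; a second simulation with many changed regions, added after that outcome, recovered most of them. A region that was not called can therefore not be read as unchanged.

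Regions were named by rule: the 12 longest by covered length in Th1 lists, the 8 strongest of at least 2 kb, every region over a listed gene, the 5 genes with most bases in such regions, the 3 longest without a gene, and the 5 highest and 5 lowest for Th2 minus naive. AA467197, Lrrk1, Cxcr1, Rufy4 and Cxcr2 were named after their values were seen. Some items that the rule names are not reported here. Regions and gene lists were chosen with earlier results of these data known. The labels do not say whether replicate numbers pair samples. Correlations of same-numbered lists' deviations ran from -0.0193 to 0.0179, and those of differently numbered lists from -0.015 to 0.0133. With 3 lists per group these values cannot show that a shared animal or day was absent.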

Additional observations from a re-analysis of the deposited data

How the results depend on the processing

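The number of Th1-only regions (1624) depended on the rule. It was 1641 at 25% and 996 at 75% of the region covered, 1012 with peaks within 1 kb joined, 483 with all 3 Th1 lists required, 2418 with matched covered length and 307 with peaks of a −log10 q of at least 5. Without 1 list it ran from 868 (without Th1 list 2) to 2115 (without Th2 list 3), and it was 882 without Th1 list 1. Of the 1624, 69.3% overlapped a Th1-only region at 25%, 39.3% at 75%, 52.4% with matched covered length and 7.33% with the stricter peaks.

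The median width was 1244 bp at 25%, 3481 bp at 75%, 9176 bp with the stricter peaks, 1946.5 bp with matched covered length and 2451 bp with joined peaks, and the median percentile of fold enrichment was 35.9, 62.5, 23.6, 36.7 and 50.5 in the same order. The share touching a protein-coding gene was 69.8% with matched covered length and moved less under the other settings. Recurrence was 42.9% (list 1), 78.5% (list 2) and 64.8% (list 3) with matched covered length and 84.9% (list 2) with the stricter peaks, so the order of the lists turned with covered length.

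Regions called higher in Th2 than in naive cells (32) numbered 0 at 25%, 146 at 75%, 9 with the stricter peaks, 49 with matched covered length, 76 with lists centred, 53 when regions of at least 2 kb alone were tested, and 18 to 62 without 1 list: 20, 18 and 19 without naive lists 1, 2 and 3, 19 and 18 without Th1 lists 1 and 2, and 62 without Th2 list 3. Those called lower (3) numbered 0, 15, 2, 0, 0 and 6 under these settings and 1 to 4 without 1 list (1 without Th2 list 1 or 2). At 25% both counts had to be 0. Every naive and Th2 list was then under 25%, so no difference could reach 25 points. The difference in covered length kept its sign under every setting run, from 101.02 kb at 25% to 1275 kb at 75%.

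Genes called higher in Th1 than in naive cells (156) numbered 83 with the stricter peaks, and those called lower (9) numbered 1 with the stricter peaks, 3 with matched length, 3 with lists centred and 2 to 13 without 1 list (2 without Th1 list 1, 4 without Th1 list 2 or 3). Genes lower in Th1 than in Th2 cells (0) numbered 2 with matched length and 0 to 1 without 1 list (1 without Th2 list 1 or 2). Genes higher in Th2 than in naive cells (32) numbered 6 with the stricter peaks, 68 with matched length, 58 with lists centred and 21 to 45 without 1 list (21 without Th1 list 1); those lower (15) numbered 5, 17, 9 and 6 to 27 (27 and 23 without naive lists 1 and 3, 6 and 9 without Th1 lists 1 and 2). The coverage of Gse1 and Ttll5, Th1 minus naive, reversed to -2.76 and -3.77 points with the stricter peaks; the cause was not tested.

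Whether the replicate numbers pair the lists is not stated in the labels. With the number as a replicate block, 22 regions were called higher and 2 lower in Th2 than in naive cells. The covered-length difference of 403 kb cannot change under such a block, because the mean of the same-numbered differences equals the difference of the means. Its exact permutation p, from flipping the signs of the same-numbered differences, was 0.25, the smallest that 3 such differences can give. Of the 1606 comparisons of named genes and regions with a setting, 1542 kept their direction and call. Read depth is unknown and limits what a missing peak can mean.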
